A study of Mus musculus with 24 samples.

Results

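*Phox2a*, *Tbx20*, *Tbx2* and *Tbx3* were followed as 4 genes of the 22889 entries in the deposited RPKM table, by their listed names, across sorted cells of oculomotor (OMN) and spinal (SC) motor neuron cultures. The cultures were made from mouse embryonic stem cells. The OMN cultures came from an *Islet1*-GFP/*NesEPhox2a* line, which carries a GFP reporter of *Islet1* and a *Phox2a* transgene, and were patterned as embryoid bodies for 5 days with 250 nM of the Smoothened agonist SAG together with Fgf8 at 100 ng/ml. The SC cultures came from an *Hb9*-GFP line, with a GFP reporter of *Hb9* (*Mnx1*) and no transgene named in the labels, and received SAG (500 nM) and retinoic acid (100 nM) for 5 days. GFP-positive and GFP-negative fractions of each culture were collected in bulk by FACS, which gave 4 groups of 6 samples. RPKM is a read number scaled by transcript length and by the mapped reads of the sample. The line, its reporter, the transgene and the patterning factors changed together between the cultures, so their parts in any difference between cultures cannot be told apart.

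PHOX2A is a paired-type homeodomain transcription factor that is required for the oculomotor and trochlear nuclei, and it also drives the noradrenergic program in other neurons. TBX20, TBX2 and TBX3 belong to the T-box family of transcription factors, named after brachyury. TBX20 acts as an activator or a repressor in heart development and is present in several groups of cranial motor neurons, where it takes part in the migration of facial motor neurons. TBX2 and TBX3 are closely related repressors with roles in the heart, the limb and other organs, and TBX3 is also part of the transcription factor network of embryonic stem cells. The transgene is placed under the nestin enhancer, which is active in neural progenitors, and its transcripts, as far as they hold *Phox2a* sequence, were counted with those of the endogenous gene.

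In the mouse genome (GRCm38, GENCODE M21), *Phox2a* (ENSMUSG00000007946.11) lies on the plus strand of chromosome 7 from 101818313 to 101822726. Its exons cover 2035 bases, of which 95 (4.7%) are shared with exons of *Inppl1* on the opposite strand. *Tbx20* (ENSMUSG00000031965.15) lies on the minus strand of chromosome 9 from 24718138 to 24774303. The exons of its 5 transcripts cover 11997 bases, against 9091 for the longest of them, so that its level per length depends on which transcripts were counted. *Tbx2* (ENSMUSG00000000093.6) lies on the plus strand of chromosome 11 from 85832551 to 85841948 with 1 transcript of 3626 bases. *Tbx3* (ENSMUSG00000018604.18) lies on the plus strand of chromosome 5 from 119670669 to 119684724 with 6 transcripts whose exons cover 6624 bases, of which 115 (1.7%) are shared with the antisense gene *Tbx3os1*. SMART-seq2 libraries do not mark the strand, so reads in the shared stretches cannot be told apart.

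The 250 bases before the start are shown for *Phox2a* and *Tbx20*, the 2 members that were higher in OMN than in SC GFP-positive cells, since the deposited values cover transcripts from these endogenous starts and, for *Phox2a*, from the transgene as well. The sequences are from RefSeq (GRCm38.p6), chr7:101818063-101818312 on the plus strand and chr9:24774304-24774553 on the minus strand, and 2 of the 4 members had an entry. The letters TAAT, the core that homeodomain proteins bind, were searched on both strands and are in capitals.
Phox2a: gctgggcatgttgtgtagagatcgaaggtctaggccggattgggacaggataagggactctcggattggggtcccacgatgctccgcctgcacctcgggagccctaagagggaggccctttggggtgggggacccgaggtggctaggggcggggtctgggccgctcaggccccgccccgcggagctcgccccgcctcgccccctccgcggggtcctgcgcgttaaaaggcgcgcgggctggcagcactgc
Tbx20: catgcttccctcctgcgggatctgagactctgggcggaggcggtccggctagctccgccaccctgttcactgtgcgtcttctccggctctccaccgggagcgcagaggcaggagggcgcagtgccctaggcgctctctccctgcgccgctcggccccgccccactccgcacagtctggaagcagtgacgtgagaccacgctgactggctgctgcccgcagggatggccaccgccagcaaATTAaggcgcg
The *Phox2a* window held no TAAT, and the *Tbx20* window held 1, read as ATTA, whose first letter lies 11 bases before the start. Of 32851 promoter windows of this length, 54.9% held TAAT on either strand. The T-box letters GGTGTGA were in neither window and in 3.33% of all windows. The GC content was 70.4% for *Phox2a* and 68.8% for *Tbx20*, against a median of 52.4% over all windows. These matches describe the letters and say nothing of binding.

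The depth of each sample was worked out from low RPKM values, which step by whole reads in genes of known length. The estimates ran from 748296 to 7614391 reads (median 3758054) over the 24 samples, with 748296 to 4627517 in replicates 1 to 4 and 4827627 to 7614391 in replicates 5 and 6. Values are therefore also given within these sets of replicates. Behind *Tbx20* in OMN GFP-positive cells stood 196 to 1162 reads per sample, behind *Phox2a* 78 to 396, behind *Tbx3* 15 to 72 and behind *Tbx2* 9 to 55. In the other groups *Tbx20* had at most 71, *Phox2a* at most 55 and *Tbx2* at most 19 reads in any sample, and *Tbx2* at most 3 in any of the 6 OMN GFP-negative samples. *Tbx3* had 2 to 35 reads in OMN GFP-negative samples and up to 181 and 240 in SC GFP-positive and GFP-negative samples. With 3 reads as the limit that a count of 0 allows, a *Phox2a* value of 0 allows up to 1.97 RPKM in the shallowest sample and a *Tbx20* value of 0 up to 0.334 RPKM. These limits cover counting error only, because reads amplified without molecular identifiers are not independent molecules.

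Markers of the labelled cell types were checked in each group. *Isl1*, the LIM homeodomain factor behind the OMN reporter, was at 141 to 369 RPKM in OMN GFP-positive and at 0.696 to 1.87 RPKM in OMN GFP-negative samples. *Chat*, the acetylcholine synthesis enzyme, was at 1.29 to 13.1 RPKM in the former and listed at 0 in all 6 of the latter. *Mnx1* was at 43.1 to 149 RPKM in SC GFP-positive samples and at 0.0696 to 6.91 RPKM in OMN GFP-positive samples. The regional markers of OMN GFP-positive cells were mixed. The midbrain factor *En1* was at 1.15 to 5.25 RPKM there, against 0.136 to 1.46 in SC GFP-positive cells. In OMN GFP-positive replicates 1 to 4 alone *En1* was at 1.15 to 2.17 RPKM. *En2* leaned the other way, at 0 to 0.614 in OMN against 0.0736 to 1.96 RPKM in SC GFP-positive cells. *Otx2* was at 0.208 to 1.62 against 0 to 1.73 RPKM and *Lmx1b* at 0 to 0.556 against 0 to 3.67 RPKM. Of the hindbrain genes *Hoxa2* was at 2.20 to 28.4, *Hoxb1* at 0.607 to 7.58 and *Hoxb2* at 0 to 1.61 RPKM. *Hoxa2* was at 6.20 to 31.2 RPKM in SC GFP-positive cells. Replicate 4 of the spinal cultures stood apart. Its GFP-negative sample held 69.4 RPKM of *Mnx1*, its GFP-positive sample held only 7.63 RPKM of *Isl1*, and the pluripotency factor *Nanog* was at 156 and 185 RPKM in its GFP-positive and GFP-negative samples. Replicate 2 of the spinal cultures stood apart in another way, since 3 predicted genes (*Gm10800*, *Gm10801* and *Gm21738*) held 68.81% of the summed RPKM of its GFP-negative and 17.79% of its GFP-positive sample, against at most 5.44% in any other sample. For the 4 genes followed, results that involve SC cells are given with and without either pair of samples where a call changed. Calls of other named genes are given from all samples only.

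*Phox2a* was highest in OMN GFP-positive cells. Its levels there were 5.83 RPKM at the lowest, 27.9 at the median and 53.4 at the highest. In OMN GFP-negative cells they were 3.09, 3.91 and 6.43 RPKM. In SC GFP-positive cells they were 0, 0.275 and 8.59 RPKM, and in SC GFP-negative cells 0, 0.417 and 2.42 RPKM. All 6 OMN samples of either fraction thus held the transcript, while 3 of the 12 SC samples were listed at 0 and SC GFP-positive replicate 1, at 8.59 RPKM, exceeded 8 of the 12 OMN samples. The order of the means was OMN GFP-positive (25.7 ± 18.0 RPKM, SD, n = 6), OMN GFP-negative (4.39 ± 1.44), SC GFP-positive (1.78 ± 3.38) and SC GFP-negative (0.659 ± 0.915), and the last 2 did not differ beyond their spread. In these bulk samples, fewer cells that carry a transcript and less of it per cell cannot be told apart.

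**Figure D1:**
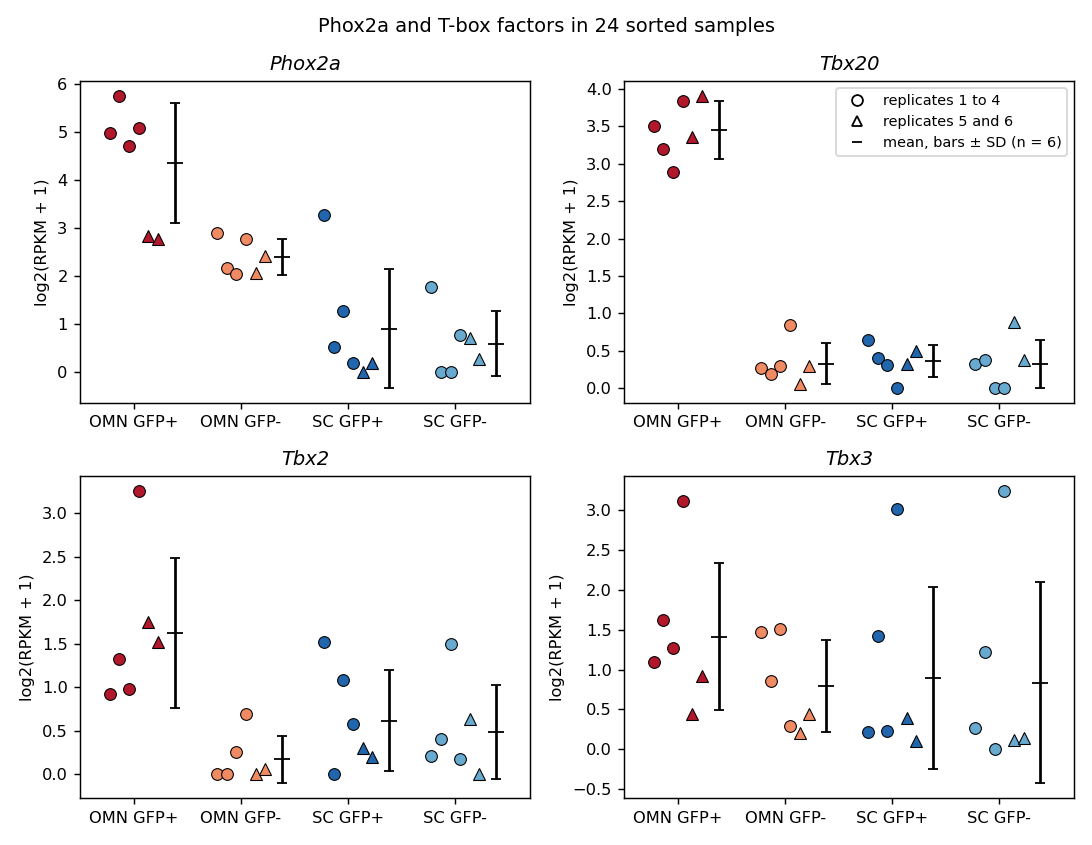
Levels of the 4 genes as log2(RPKM + 1) in each of the 24 samples, by group, with circles for replicates 1 to 4, triangles for replicates 5 and 6, and the mean ± SD of each group (n = 6). *Tbx20* separates OMN GFP-positive samples from all others, while *Phox2a* overlaps between OMN and SC GFP-positive cells, with SC replicate 1 (8.59 RPKM) above OMN replicates 5 and 6 (6.08 and 5.83 RPKM).

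Between OMN and SC GFP-positive cells, *Phox2a* was higher by a log2 change of 3.46 (SE 0.66, 95% interval 2.04 to 4.88, limma adjusted p = 0.0317) on the log2(RPKM + 1) scale. The groups overlapped, since OMN GFP-positive replicates 5 and 6 (6.08 and 5.83 RPKM) were below SC GFP-positive replicate 1. Of the 4 genes, *Phox2a* and *Tbx20* passed the threshold of 0.05 in this comparison, in which 0.603% of all 19240 genes tested did (0.353% higher and 0.249% lower in OMN). The *Phox2a* change was 3.83 within replicates 1 to 4 and 2.71 within replicates 5 and 6. Without spinal replicate 4 the change was 3.31, with an adjusted p of 0.0608, and without spinal replicate 2 it was 3.38, with an adjusted p of 0.0547. The call was lost without any 1 of 8 of the 12 samples, namely OMN replicates 1, 2, 3 and 4 and SC replicates 2, 4, 5 and 6 (adjusted p from 0.0547 to 0.0897), and also with no filter on low values (0.0766) or with sample quality weights (0.0655).

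*Phox2a* was also higher in OMN than in SC cells of the GFP-negative fraction, but below the threshold of the test. The log2 change was 1.80 (SE 0.54, interval 0.69 to 2.92, limma adjusted p = 0.129), and every OMN GFP-negative sample exceeded every SC GFP-negative sample, as was the case for 0.397% of the 22179 genes tested. None of the 4 genes passed in this comparison, against 0.96% of all genes (0.41% higher and 0.55% lower). The change was 1.83 within replicates 1 to 4 and 1.75 within replicates 5 and 6. *Phox2a* did pass when only the 12 GFP-negative samples were fitted (adjusted p = 0.0451) and after rescaling by the median ratio (adjusted p = 0.0396).

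Within the OMN cultures, *Phox2a* was higher in the GFP-positive fraction in 6 of 6 pairs of the same replicate number. The log2 change was 1.97 (SE 0.54, interval 0.85 to 3.09, limma adjusted p = 0.0288). It was 2.67 within replicates 1 to 4 and 0.56 within replicates 5 and 6. OMN GFP-positive levels were 25.4 to 53.4 RPKM in replicates 1 to 4 against 6.08 and 5.83 RPKM in replicates 5 and 6, while OMN GFP-negative levels hardly differed between the sets (3.09 to 6.43 and 3.16 to 4.35 RPKM). The call was lost without any 1 of 8 OMN samples, namely GFP-positive replicates 1, 2, 3 and 4 and GFP-negative replicates 2, 3, 5 and 6 (adjusted p from 0.052 to 0.0796), and with a pseudocount of 0.1 RPKM (2.16, adjusted p = 0.167).

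Several other genes were lower in OMN GFP-positive replicates 5 and 6 as well. The overlapping gene *Inppl1*, which encodes the lipid phosphatase SHIP2, was at 1.72 to 12.6 RPKM in OMN GFP-positive replicates 1 to 4 and at 0.416 and 0.136 RPKM in replicates 5 and 6, and no sample of replicates 5 and 6 in any group exceeded 0.745 RPKM. *Gsc*, another paired-type factor, was at 4.08 to 43.5 against 0.988 and 1.71 RPKM. The summed level of the 11 neural progenitor markers was 194.6 to 549 RPKM in replicates 1 to 4 against 135.5 and 159 RPKM, with *Vim* or *Fabp7* as its most abundant gene and no marker at 0. Of the 11, 7 were lower without overlap in replicates 5 and 6, namely *Sox2*, *Sox3*, *Pax6*, *Hes1*, *Hes5* and the cell cycle genes *Mki67* and *Top2a*, while *Nes*, *Vim*, *Fabp7* and *Sox1* overlapped. Of the 6 motor neuron markers, 2 were lower without overlap, with *Chat* at 5.52 to 13.1 against 1.56 and 1.29 RPKM, *Slc18a3*, the vesicular acetylcholine transporter, at 30.8 to 62.4 against 10.8 and 11.8 RPKM. *Isl2* and *Prph* overlapped, and 2 were higher without overlap, with *Isl1* at 141 to 271 against 286 and 369 RPKM and *Slc5a7*, the choline transporter, at 0 to 0.546 against 0.605 and 0.587 RPKM. The *Slc5a7* values were all below 1 RPKM, with a narrow margin and 2 of replicates 1 to 4 listed at 0. *Rgs4* was lower, at 98.2 to 191 against 78.6 and 86.5 RPKM. The sets of replicates overlapped for *Nes*, the gene whose enhancer drives the transgene (2.35 to 12.3 against 2.51 and 4.49 RPKM), and for *Tbx20* (6.39 to 13.4 against 9.29 and 14.0 RPKM). The number of genes above 1 RPKM differed between the sets as well, at 10639 to 11238 in replicates 1 to 4 against 9685 and 9569. No share of all genes is given for such a split between the sets of replicates, so the counts without overlap describe the listed markers only. The part that these differences had in the *Phox2a* result was not tested.

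In the SC cultures, *Phox2a* did not pass between the fractions (log2 change 0.31, SE 0.54, interval -0.80 to 1.43, limma adjusted p = 0.914), and it was higher in the GFP-positive sample of 3 of 6 pairs. None of the 4 genes passed here, against 1.23% of all genes (0.397% higher and 0.83% lower in GFP-positive cells). The *Phox2a* difference between fractions was 1.66 (SE 0.76) greater in OMN than in SC cultures, which missed the threshold as an interaction of culture and fraction (limma adjusted p = 0.657).

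*Tbx20* separated OMN GFP-positive cells from all other samples. Its levels were 6.39, 9.83 and 14.0 RPKM (lowest, median and highest) in OMN GFP-positive cells. They were 0.0346, 0.215 and 0.803 RPKM in OMN GFP-negative cells, 0, 0.288 and 0.565 RPKM in SC GFP-positive cells, and 0, 0.272 and 0.839 RPKM in SC GFP-negative cells. The lowest OMN GFP-positive sample was thus far above the highest of the 18 other samples, and the other 3 groups lay in one range. The means were 10.3 ± 2.98 RPKM (SD, n = 6) in OMN GFP-positive cells against 0.273 ± 0.270, 0.299 ± 0.189 and 0.280 ± 0.307 RPKM.

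The log2 change of *Tbx20* was 3.09 between OMN and SC GFP-positive cells (SE 0.30, interval 2.44 to 3.73, limma adjusted p = 0.000196), where 0.733% of all genes were without overlap and higher in OMN. It was 3.13 between the OMN fractions (SE 0.23, interval 2.65 to 3.60, adjusted p = 1.02e-08), where 4.04% of all genes were without overlap and higher in GFP-positive cells. The pseudocount of 1 RPKM understates both changes, because the lower groups lie below it. In the 6 OMN pairs the step ran from 2.58 to 3.61. Between the GFP-negative fractions the interval of the difference was -0.48 to 0.48 (adjusted p = 1.00), and between the SC fractions -0.44 to 0.52 (adjusted p = 0.987).

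The *Tbx20* step differed between the cultures by 3.09 (SE 0.33, interval 2.41 to 3.76, limma adjusted p = 1.51e-05). *Tbx20* was the only one of the 4 genes to pass as an interaction, which 0.32% of all 22179 genes did (0.262% higher and 0.0586% lower). With the replicate number of each culture as a block, as the pairs of fractions allow, 453 genes passed in place of 71, and 3644 in place of 1364 between the OMN fractions, while the calls of the 4 genes were kept. In replicates 1 to 4 and in replicates 5 and 6 the interaction was 2.79 and 3.68, the change between the GFP-positive fractions 3.02 and 3.23, and that between the OMN fractions 2.96 and 3.46.

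**Figure D2:**
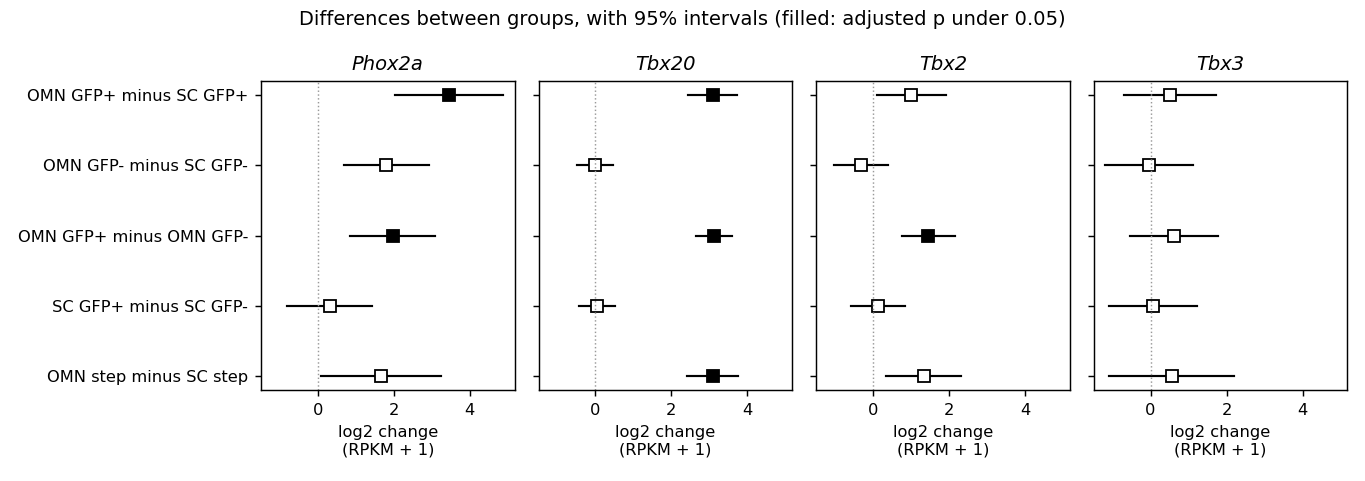
Differences between groups for each gene on the log2(RPKM + 1) scale, as squares with 95% intervals from limma. Filled squares passed an adjusted p of 0.05. *Tbx20* passed in the 3 comparisons that involve OMN GFP-positive cells, at 3.09, 3.13 and 3.09, and *Tbx3* in none.

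*Tbx2* was low everywhere and highest in OMN GFP-positive cells. Its levels there were 0.891, 1.69 and 8.58 RPKM (lowest, median and highest), against 0, 0.0222 and 0.613 RPKM in OMN GFP-negative cells. In SC GFP-positive cells they were 0, 0.361 and 1.87 RPKM, and in SC GFP-negative cells 0, 0.238 and 1.83 RPKM. The OMN fractions did not overlap, whereas the OMN and SC GFP-positive groups did. Replicate 4 was the highest OMN GFP-positive sample by far, on 44 reads in the shallowest library of that group.

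Between the OMN fractions *Tbx2* was higher in GFP-positive cells by a log2 change of 1.46 (SE 0.34, interval 0.75 to 2.16, limma adjusted p = 0.0102), in 6 of 6 pairs. With *Phox2a* and *Tbx20*, 3 of the 4 genes passed this comparison, in which 6.15% of all genes passed, 845 (3.81%) higher and 519 (2.34%) lower. Rescaling the samples by their median ratio gave 881 higher and 834 lower. Without replicate 4 of the OMN GFP-positive group the *Tbx2* change was 1.13 and stayed past the threshold. Within replicates 1 to 4 it was 1.38, with an adjusted p of 0.182 among 4 samples a group. Between OMN and SC GFP-positive cells the change was 1.01 (SE 0.42, interval 0.10 to 1.93, adjusted p = 0.429), and the interaction was 1.33 (SE 0.48, adjusted p = 0.420). *Tbx2* fell short of the threshold between the GFP-negative fractions as well (log2 change -0.32, interval -1.02 to 0.39, adjusted p = 0.760).

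*Tbx3* was high in single samples of 3 groups. It was at 0.355, 1.28 and 7.69 RPKM in OMN GFP-positive, 0.157, 0.589 and 1.84 RPKM in OMN GFP-negative, 0.0787, 0.244 and 7.07 RPKM in SC GFP-positive and 0, 0.157 and 8.49 RPKM in SC GFP-negative cells. All 4 groups overlapped. The 3 highest values were in replicate 4 of OMN GFP-positive, SC GFP-positive and SC GFP-negative cells, and no other sample exceeded 2.09 RPKM. No comparison passed, with the largest log2 change between the OMN fractions (0.62, SE 0.56, interval -0.54 to 1.77, limma adjusted p = 0.683) and 0.51 between the GFP-positive fractions (interval -0.69 to 1.72, adjusted p = 0.789). Without OMN GFP-positive replicate 4 these changes were 0.27 and 0.17. Without the spinal replicate 4 samples the change between the GFP-positive fractions was 0.94 and that between the GFP-negative fractions 0.45, against -0.04 with them.

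In the spinal replicate 4 samples *Tbx3* stood beside high pluripotency genes. The summed level of 9 pluripotency markers was 5335 RPKM in the GFP-positive and 6005 RPKM in the GFP-negative sample, with *Dppa5a* as the most abundant gene and no marker at 0. *Nanog* was at 156 and 185 RPKM and *Pou5f1* at 31.5 and 50.3 RPKM in these samples. In SC GFP-positive replicate 5 *Tbx3* was at 0.313 RPKM. The sum there was 12419 RPKM, of which *Dppa5a* made up 12328, with *Nanog* at 40.5 and *Pou5f1* at 2.15 RPKM. The mean log2(RPKM + 1) of the 9 markers was 4.13 in that sample against 6.04 and 6.31 in the spinal replicate 4 samples. In OMN GFP-negative replicate 1 that mean was 6.23, with *Nanog* at 85.4 and *Pou5f1* at 43.7 RPKM, and *Tbx3* was at 1.77 RPKM. In OMN GFP-positive replicate 4 the sum was 1.01 RPKM, with 7 of the 9 markers at 0, and *Tbx3* 7.69 RPKM. *Tbx2* and *Tbx3* were both high in OMN GFP-positive replicate 4, whereas in the spinal replicate 4 samples *Tbx2* was at 0.494 and 0.130 RPKM. The antisense gene *Tbx3os1* was at 0.893 RPKM in OMN GFP-positive replicate 4 and at 0.566 and 0.594 RPKM in the spinal replicate 4 samples. It was highest, at 1.87 RPKM, in OMN GFP-positive replicate 6, where *Tbx3* was at 0.896 RPKM. In SC GFP-negative replicate 1 it was at 0.606 RPKM, with *Tbx3* at 0.207 RPKM.

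**Figure D3:**
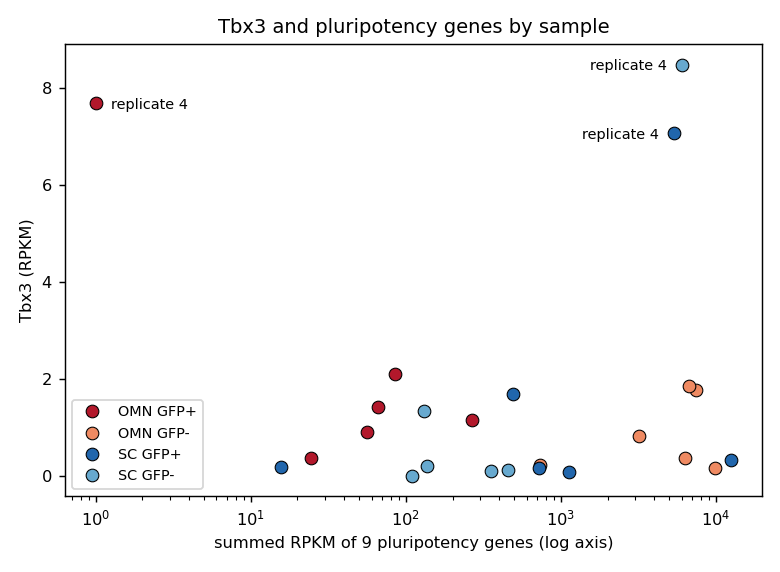
Level of *Tbx3* in RPKM against the summed RPKM of 9 pluripotency genes (log axis) in each of the 24 samples, coloured by group. The replicate 4 samples of OMN GFP-positive, SC GFP-positive and SC GFP-negative cells, at 7.69, 7.07 and 8.49 RPKM of *Tbx3*, stand above the rest at very different sums of pluripotency genes.

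Within the T-box family, *Tbx20* was the most abundant gene in 5 of the 6 OMN GFP-positive samples, and *Mga* in replicate 3 (6.60 against 6.39 RPKM). Of 17 family members listed, 16 were in the table. *Tbx20* made up 36.5% to 70.3% (median 49.3%) of the family's summed RPKM, a level per length, in OMN GFP-positive cells, and at most 10.9% in any sample of the other groups. In those groups *Mga*, a MAX partner that carries a T-box and is broadly expressed, held the largest median share, from 63.4% to 72.6%. *Mga* itself was at 2.45 to 6.60 RPKM in OMN GFP-positive and at 5.72 to 11.4 RPKM in SC GFP-positive cells and did not pass (log2 change -0.77, SE 0.29, limma adjusted p = 0.360).

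Few other members were present. *T* (brachyury), a mesoderm factor, averaged 1.40 RPKM in OMN GFP-negative cells and was listed at 0 in 2 of those 6 samples. It reached 2.93 RPKM in OMN GFP-positive replicate 2 and was at 0 in 4 samples of that group. *Tbx1* reached 2.88 RPKM in SC GFP-positive replicate 4 and 2.75 RPKM in OMN GFP-negative replicate 3. *Tbx6* reached 1.70 RPKM in SC GFP-negative replicate 4. *Eomes*, which also marks early mesendoderm, reached 4.19 and 3.51 RPKM in the spinal replicate 4 samples and at most 0.466 RPKM in any other sample. Between the GFP-positive fractions 1 of 13 tested members passed (*Tbx20*, against 0.603% of all genes, with a median change of the family of -0.0043 and of all genes of -0.04), and between the OMN fractions 2 of 16 (*Tbx20* and *Tbx2*, against 6.15% of all genes, with median changes of -0.01 and 0.00). None of the 16 passed between the GFP-negative fractions or between the SC fractions.

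**Figure D4:**
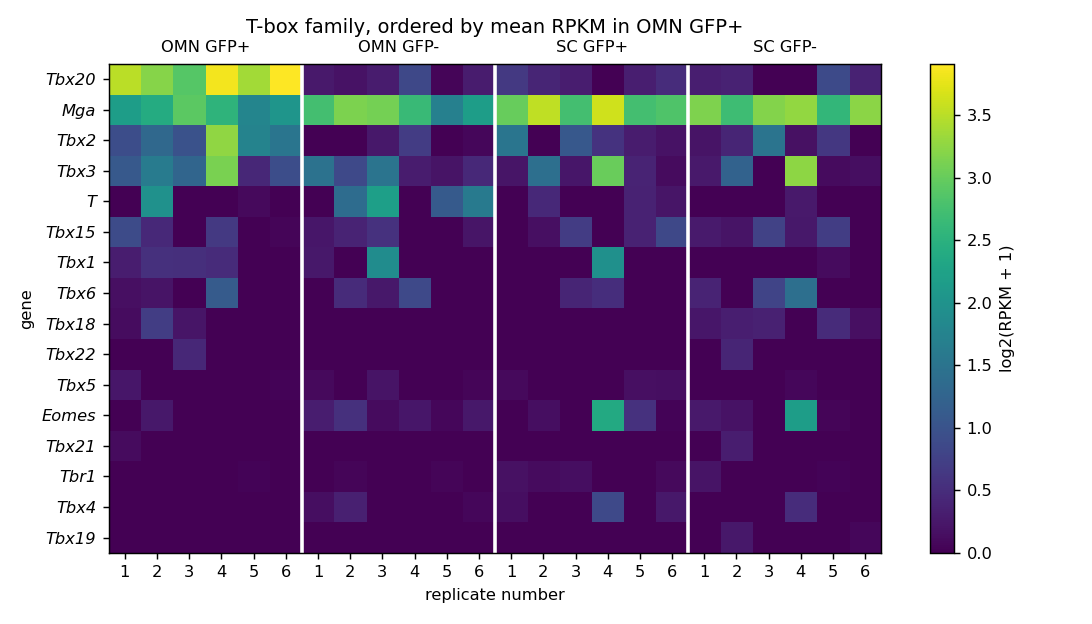
Levels of 16 T-box family members as log2(RPKM + 1) in the 24 samples, with genes ordered by their mean RPKM in OMN GFP-positive cells. *Tbx20* is high in the 6 OMN GFP-positive samples only, *Mga* is present in all 24, and *Tbx3* and *Eomes* are at their highest SC levels in replicate 4 of both fractions.

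Markers of other cell types that can hold T-box factors were also summed in OMN GFP-positive samples. The 6 cardiac mesoderm markers summed to 0.0606 to 1.31 RPKM. Between 2 and 5 of them were at 0 in each sample, and the most abundant was *Actc1*, *Tnnt2* or *Nkx2-5*. The 7 neural crest and roof plate markers summed to 0 to 0.901 RPKM, with at least 4 of the 7 at 0. The part of such cells in the levels of the T-box genes was not tested. The 6 motor neuron markers summed to 189 to 392 RPKM in the same samples, with *Isl1* as the most abundant.

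Among paired-type homeobox genes, *Phox2a* was the most abundant in 5 of the 6 OMN GFP-positive samples, and *Gsc* in replicate 3. Of 18 genes listed, 16 were in the table. *Phox2a* was the only 1 of 14 tested to pass between the GFP-positive fractions, where 0.603% of all genes passed. *Gsc*, a homeodomain repressor of the early embryo's organizer, was at 0.988, 9.57 and 43.5 RPKM in OMN GFP-positive cells and at 0, 0.160 and 1.21 RPKM in SC GFP-positive cells (log2 change 2.78, SE 0.69, limma adjusted p = 0.114). Between the OMN fractions 2 of 16 genes, *Phox2a* and *Gsc*, were higher in GFP-positive cells, against 3.81% of all genes (*Gsc* log2 change 1.97, SE 0.57, adjusted p = 0.0399). *Gsc* was higher there in replicates 1 to 4 (4.08 to 43.5 against 0.275 to 1.48 RPKM) and lower in replicates 5 and 6 (0.988 and 1.71 against 1.47 and 2.16 RPKM). *Isx* was listed at 0 in all samples but 4 of the SC GFP-negative group. It was lower in SC GFP-positive than GFP-negative cells (log2 change -1.13, SE 0.28, adjusted p = 0.0486) in the fit of all samples. Far fewer genes were called there with only the SC samples fitted, and whether *Isx* was among them is not given.

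A list of 16 genes of the noradrenergic phenotype and of known or candidate Phox2 targets was drawn up with earlier results of these data known, so its counts are not independent evidence. Between the OMN fractions 7 of the 16 were higher in GFP-positive cells and none lower (median log2 change 0.93, of all genes 0.00), where 3.81% of all genes were higher and 2.34% lower. *Rgs4*, a regulator of G protein signaling, was at 78.6, 126 and 191 RPKM in OMN GFP-positive cells and at 0, 0.247 and 0.718 RPKM in OMN GFP-negative cells (log2 change 6.60, SE 0.40, limma adjusted p = 4.6e-10). *Chrna3*, a nicotinic receptor subunit, was at 8.21, 14.5 and 46.5 against 0, 0.0197 and 0.0891 RPKM (4.19, SE 0.38, adjusted p = 1.47e-07). *Chrnb4*, its partner subunit from the same gene cluster, was at 5.42, 15.5 and 20.0 against 0.0557, 0.316 and 0.833 RPKM (3.43, SE 0.40, adjusted p = 5.81e-06). The fractions did not overlap for these genes, nor for *Insm1*, *Slc18a2*, *Ret* and *Dbh*, the other 4 that passed. Of all genes, 4.04% were without overlap and higher in GFP-positive cells. For *Dbh* the margin was narrow, with the nearest samples at 0.101 and 0.0770 RPKM.

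The noradrenergic genes themselves were uneven. *Dbh*, the enzyme that makes noradrenaline and a direct Phox2a target, was at 0.101, 1.93 and 2.90 RPKM in OMN GFP-positive cells and above 0 in 1 of 6 OMN GFP-negative samples, at 0.0770 RPKM (log2 change 1.33, SE 0.22, limma adjusted p = 0.000437). *Th*, the rate-limiting enzyme of catecholamine synthesis, was at 0, 2.12 and 7.35 RPKM in OMN GFP-positive cells. It was at 2.04, 5.95 and 15.4 RPKM in SC GFP-positive cells and passed only between the SC fractions (1.99, SE 0.49, adjusted p = 0.0412). That call is from the fit of all samples. With only the SC samples fitted, far fewer genes were called, and whether *Th* was among them is not given. *Slc6a2*, the noradrenaline transporter, and *Hand2*, a factor of sympathetic neurons, were listed at 0 in all 6 OMN GFP-positive samples.

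Compared with SC GFP-positive cells, 2 of 14 tested genes of this list were higher in OMN GFP-positive cells and none lower (median log2 change 0.88, of all genes -0.04), against 0.353% of all genes higher and 0.249% lower. *Rgs4* was at 0.248, 2.67 and 6.94 RPKM in SC GFP-positive cells, without overlap (log2 change 5.26, SE 0.49, limma adjusted p = 0.000196). *Chrnb4* was at 0.0688, 1.56 and 5.43 RPKM there and overlapped by a narrow margin (2.58, SE 0.48, adjusted p = 0.0265). The step between fractions differed between the cultures for 5 of 16 genes, which were *Rgs4*, *Chrna3*, *Chrnb4*, *Insm1* and *Dbh*, all with the higher value in OMN cultures, against 0.262% of all genes in that direction. In the GFP-negative fraction *Chrna3* was lower in OMN than in SC cells (-1.74, SE 0.38, limma adjusted p = 0.0249). *Phox2a*, whose OMN values include the transgene, was higher in every OMN sample of that fraction but did not pass. A link between the levels of these genes was not tested.

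**Figure D5:**
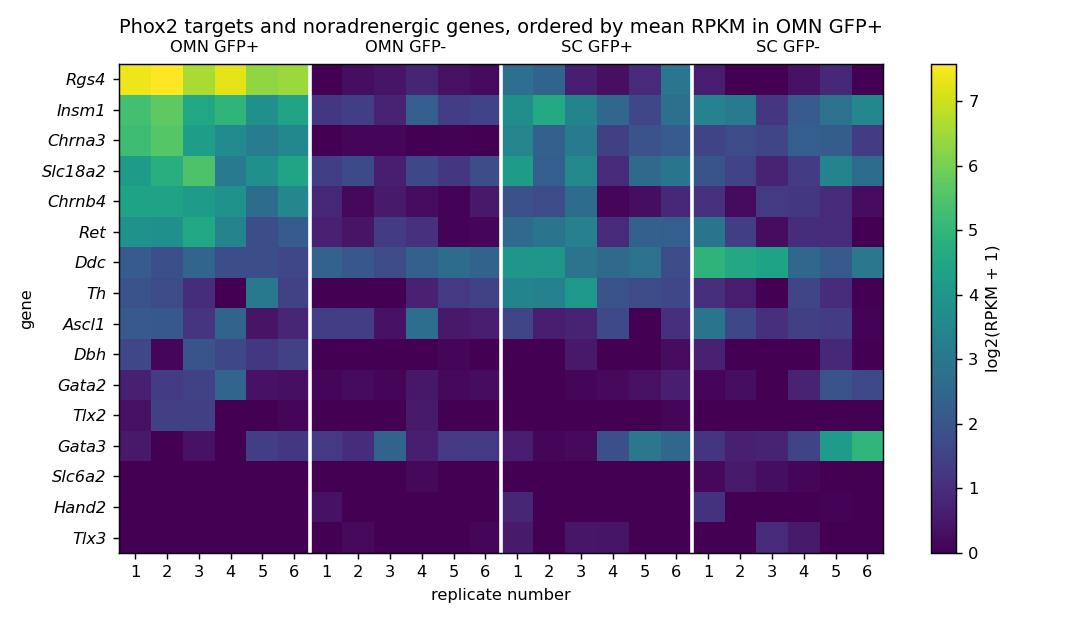
Levels of 16 noradrenergic genes and known or candidate Phox2 targets as log2(RPKM + 1) in the 24 samples, with genes ordered by their mean RPKM in OMN GFP-positive cells. *Rgs4* (78.6 to 191 RPKM in OMN GFP-positive cells) leads the list, and *Slc6a2*, *Hand2* and *Tlx3* are at the bottom.

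Of 13 cranial motor neuron and midbrain to hindbrain genes, 1 passed between the GFP-positive fractions (median log2 change 0.31), against 0.603% of all genes. This was *Nkx6-2*, a ventral progenitor factor, at 7.88 to 56.4 RPKM in OMN and 0.940 to 3.03 RPKM in SC GFP-positive cells (2.89, SE 0.47, limma adjusted p = 0.0114). Between the OMN fractions *Isl1* (6.79, SE 0.51, adjusted p = 1.33e-08) and *Nkx6-1* (3.09, SE 0.83, adjusted p = 0.0249) were higher in GFP-positive cells, where 3.81% of all genes were. *Otx2*, the forebrain and midbrain factor, was lower there, at 0.208 to 1.62 against 8.84 to 32.2 RPKM (-3.53, SE 0.33, adjusted p = 1.89e-07). *Otx2* was also the gene of this list that passed between the GFP-negative fractions (4.17, SE 0.33, adjusted p = 4.83e-08), which 0.96% of all genes did.

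The 4 genes differed in how far they went together over the 24 samples. As a description over samples that fall into 4 groups, Pearson's r of log2(RPKM + 1) was 0.76 for *Phox2a* with *Tbx20* (Spearman's rho 0.54), 0.71 for *Tbx20* with *Tbx2* (0.60) and 0.52 for *Phox2a* with *Tbx2* (0.38). For *Tbx3*, r was 0.20 to 0.22 with each of the other 3. Its rho was 0.35 with *Phox2a*, 0.044 with *Tbx20* and 0.029 with *Tbx2*.

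Among 12595 genes above 1 RPKM in at least 6 samples, the patterns most like *Tbx20* were those of *Thsd7b* (r = 0.96, rho = 0.79), *Fam163a*, *Eya1*, *Rgs4* and *Sema6d*, the last with r = 0.95. *Eya1*, a transcriptional cofactor, averaged 12.1 RPKM in OMN GFP-positive cells and at most 1.25 RPKM in the other groups. Most like *Phox2a* were *Slc35d2* (r = 0.91, rho = 0.85), *Cyb5r3*, *Fam210b*, *1700003F12Rik* and *Fign*, the last with r = 0.84. Most like *Tbx2* were *Onecut3* (r = 0.88, rho = 0.64), a homeobox factor, the pacemaker channel *Hcn4*, *Flrt1*, *Rprm* and *Irx1*. For *Tbx3* they were *Itpr3* (r = 0.89, rho = 0.79), an IP3 receptor, *Abcc1*, *Adpgk*, *Fam13b* and *Ccdc15*. None of the last 5 averaged over 3.57 RPKM in any group, and the 24 points of each correlation share their libraries.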

How the data were processed

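Poly(A) RNA of 24 sorted samples was sequenced after SMART-seq2 with Tn5 tagmentation. Per the submitters' processing notes, reads were handled with HISAT2 (2.0.3), mm10/GRCm38 and DESeq2 (1.12.4). The deposited values are RPKM that the authors made with rpkmforgenes. Read counts were not used here, so no count test was made. Per-sample depth is an estimate from 5911 genes with a single transcript, where 96.1% to 97.9% of values under 10 reads lay within 2% of a whole read. Levels were compared as log2(RPKM + 1) with limma (3.58.1, R 4.3.3), with a variance trend, moderated variances and Benjamini-Hochberg adjustment over all genes above 0 RPKM in at least 2 samples, at a threshold of 0.05. OMN and SC GFP-positive cells were compared in a fit of 12 samples, the rest in a fit of all 24. The fits were tested on simulated data, of which no outcome is given or used here. Descriptive tables used Python 3.11.15, numpy 2.4.6 and pandas 2.3.3, and figures matplotlib 3.10.9. Members and gene lists were chosen with earlier results of these data known. List genes averaging above 1 RPKM in a group were named, the most changed first, and a few at 0 were added after their values were seen, as were *Inppl1*, *Tbx3os1*, *Eomes*, *Tbx1*, *Tbx6* and *En2*. *Hoxb2* was named below that average as well. For likeness the 5 highest correlations were named. GFP-positive and GFP-negative samples of 1 culture and number were taken as pairs, since their deviations from the group means correlated in each pair (0.379 to 0.728 in OMN, 0.421 to 0.661 in SC, over 11952 genes). SC GFP-positive replicate 6, however, correlated most with SC GFP-negative replicate 5. Replicates 5 and 6 also correlated across cultures, at 0.707 and 0.6 between the GFP-positive samples. The labels do not say that replicates were separate cultures, so p-values measure the spread between these samples. Alternatives were other pseudocounts, filters, scaling, weights, blocks and left-out samples.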

Additional observations from a re-analysis of the deposited data

Results flagged for a closer look

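Within the 16 sets of 6 samples that the 4 genes and 4 groups form, 10 held a sample that stood apart from the other 5 by Dixon's test at the 95% level, against about 1 in 20 by chance for values that are normally distributed, which low RPKM are not. *Phox2a* was at 8.59 RPKM in SC GFP-positive replicate 1 and at 2.42 RPKM in SC GFP-negative replicate 1, which share a replicate number. *Tbx20* was at 0.803 RPKM in OMN GFP-negative replicate 4 and at 0.839 RPKM in SC GFP-negative replicate 5. *Tbx2* was at 8.58 RPKM in OMN GFP-positive replicate 4, at 0.613 RPKM in OMN GFP-negative replicate 4, and at 1.83 RPKM in SC GFP-negative replicate 3. *Tbx3* was at 7.69 RPKM in OMN GFP-positive replicate 4, at 7.07 RPKM in SC GFP-positive replicate 4 and at 8.49 RPKM in SC GFP-negative replicate 4. The *Tbx20* difference between fractions was greater in OMN than in SC cultures by 3.09 on the log2 scale, as the interaction term of the limma fit (adjusted p = 1.51e-05).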

How the results depend on the processing

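The calls of *Tbx20*, between the GFP-positive fractions, between the OMN fractions and as an interaction, were kept under every alternative with a test, and leaving out 1 sample gave 3.00 to 3.20, 3.04 to 3.24 and 2.98 to 3.20. *Phox2a* between the GFP-positive fractions was not called with no filter on low values (3.46), in replicates 1 to 4 (3.83), with sample quality weights (2.92) and, as alternatives chosen after seeing the data, without the spinal replicate 4 samples (3.31) or the spinal replicate 2 samples (3.38), and ran from 3.18 to 3.93 with 1 sample left out. Between the GFP-negative fractions it was called after rescaling (1.89), with the replicate number as a block across all groups (1.80) and in the 12 samples compared (1.80). Between the OMN fractions it was not called with a pseudocount of 0.1 RPKM (2.16), was 0.56 in replicates 5 and 6, and ran from 1.69 to 2.29 with 1 sample left out. *Tbx2* between the OMN fractions was not called in replicates 1 to 4 (1.38), among 4 samples a group.

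Values near 0 that were never called changed sign. Between the GFP-negative fractions these were *Tbx3* with a pseudocount of 0.1 RPKM (0.52), weights (0.27), without spinal replicate 4 (0.45) or 2 (0.041), in replicates 5 and 6 (0.20) and with 1 sample left out (-0.20 to 0.45), and *Tbx20* after rescaling (-0.041), with weights (-0.14), without spinal replicate 4 (-0.065), in replicates 5 and 6 (-0.45) and with 1 sample left out (-0.11 to 0.11). Between the SC fractions they were *Phox2a* with weights (-0.073) and *Tbx20* after rescaling (-0.0082) and with weights (-0.014), in replicates 5 and 6 *Phox2a* (-0.40), *Tbx20* (-0.21) and *Tbx2* (-0.069), and with 1 sample left out *Phox2a* (-0.16 to 0.55), *Tbx20* (-0.025 to 0.15), *Tbx2* (-0.056 to 0.33) and *Tbx3* (-0.36 to 0.55). The *Tbx20* interaction was 3.68 in replicates 5 and 6. The causes were not tested.

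Counts of all genes called moved more. Between the GFP-positive fractions, 116 became 229 with the smaller pseudocount, 198 above 1 RPKM, 260 with weights, 342 in the fit of 24 samples and 30 in replicates 1 to 4, and 67 to 181 with 1 sample left out. Between the GFP-negative fractions, 213 became 650 with weights, 76 in 12 samples, 39 in replicates 1 to 4, 584 without spinal replicate 4 and 115 to 444 with 1 sample left out. Between the OMN fractions, 1364 became 3795 with weights, 2388 in 12 samples, 476 in replicates 1 to 4 and 1017 to 1558 with 1 sample left out. Between the SC fractions, 272 became 484, 4 and 1 in the same settings, 633 without spinal replicate 4 and 186 to 634 with 1 sample left out. For the interaction, 71 became 108 after rescaling, 240 with weights, 10 in replicates 1 to 4, 228 without spinal replicate 4 and 41 to 234 with 1 sample left out.

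With the pairs of fractions within each culture as a replicate block, 3644, 649 and 453 genes were called between the OMN fractions, between the SC fractions and as an interaction, and the calls of the 4 genes were unchanged. The bare replicate number as a block also joined OMN and SC samples of the same number, which were not taken as pairs. Their deviations correlated at -0.175 to 0.707 between GFP-positive and at -0.0386 to 0.612 between GFP-negative samples. With this block, 73 genes were called between OMN and SC cells of the GFP-positive and 563 of the GFP-negative fraction. It gave 2361 within OMN and 416 within SC cultures, and 133 for the interaction.

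*Tbx2* and *Tbx3* rested on at most 55 and 72 reads in any OMN GFP-positive sample. The part of low depth in their results was not tested.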

Other observations

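For comparison with the counts below, 3.81% of all genes were higher and 2.34% lower in OMN GFP-positive than GFP-negative cells, 0.397% and 0.83% in the SC cultures, and 0.353% and 0.249% in OMN than in SC GFP-positive cells. Of 6 motor neuron markers, 5 were higher in OMN GFP-positive than GFP-negative cells (median log2 change 2.34) and 3 in SC GFP-positive cells (2.07), with *Isl1*, *Prph* and *Isl2* in both, and none passed between the GFP-positive fractions. Of 5 spinal motor neuron markers, *Mnx1*, *Lhx3* and *Lhx1* were lower in OMN than in SC GFP-positive cells (median of the list -3.12), while *Lhx4* was higher in GFP-positive cells of either culture. *Lhx1* was listed at 0 in 5 of 6 OMN GFP-positive samples. Of 9 pluripotency markers, 6 were lower in OMN GFP-positive than GFP-negative cells, among them *Nanog* (0.315 to 3.17 against 16.5 to 85.4 RPKM), and 1, *Klf4*, in the SC cultures. Of 7 endoderm markers, 5 were lower in SC GFP-positive than GFP-negative cells, and 1, *Foxa2*, in the OMN cultures. The calls between the SC fractions named here are from the fit of all samples. Far fewer genes were called in that comparison with only the SC samples fitted, or only replicates 1 to 4. These SC calls therefore cannot all hold in either setting, and which of them were kept is not given. Of 11 neural progenitor markers, *Sox2*, *Hes1* and *Top2a* were lower in OMN GFP-positive cells, and *Nes* did not pass (log2 change -0.44, SE 0.71, limma adjusted p = 0.893).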
